A study of Mus musculus with 8 samples.

Results

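Molecular chaperones and the unfolded protein response were followed in mouse ankle joints with and without a human TNF transgene. The members were 44 listed genes, picked by name with earlier results of these data known: 17 of the cytosol, 24 of the endoplasmic reticulum (ER) and 3 of mitochondria. A member was measured where at least 1 Affymetrix probe set (a group of short probes for one transcript) was annotated to that gene alone, which held for 42 of the 44, out of 18193 genes named on the array. Hsp90ab1, a cytosolic Hsp90, and Hsf1, the transcription factor of the heat shock response, were not analysed here. The 42 genes had 106 probe sets, of which 89 passed the filter on dim values. Each gene had at least 1 that passed and is represented below by the brightest.

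RNA of ankle joints of mice at 5 months of age was hybridised to 8 arrays. The wild-type group has 2 arrays. The hTNF group has 3 arrays of mice over-expressing the human TNFa transgene with normal sphingosine kinase 1 (Sphk1), the enzyme that makes sphingosine-1-phosphate. The other 3 arrays come from mice with the same transgene that are labelled as functionally null for Sphk1. The labels do not give the promoter of the transgene, the change made to Sphk1, or the sex and strain of the mice. The series asks what Sphk1 does in this TNF-driven joint disease. No label says that the joints of a group came from separate mice or litters, so p-values reflect only how far these 8 arrays scatter, and some of that scatter may be technical.

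Chaperones bind unfolded chains and help them reach their shape. Hsp70 and Hsp90 proteins do so with ATP, J proteins hand clients to Hsp70, small heat shock proteins hold clients without ATP, and lectin chaperones with disulfide isomerases fold secreted glycoproteins inside the ER. When unfolded protein builds up in the ER, the sensors Ern1 (IRE1), Eif2ak3 (PERK) and Atf6 switch on the unfolded protein response, whose transcription factors raise ER chaperones and the machinery that removes misfolded chains. In the cytosol the heat shock response plays the corresponding part. Striated muscle is known for high levels of several small heat shock proteins, and cells that secrete much protein, such as fibroblasts and plasma cells, for a large ER folding capacity.

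The ER stress element, to which Atf6 binds with the CCAAT-box factor NF-Y, is a DNA motif that many ER chaperone genes carry close to their start. It was searched for as CCAAT and CCACG with 9 bases of any kind between them, on both strands, in the 250 bases before each RefSeq start (GRCm38.p6). Of the 44 members, 35 were in the promoter table, 21 of them ER genes. The motif was found in 7 members, all ER genes, against 35 of the 27025 genes in the table (0.13%). The 7 stretches are shown because they are the members with the motif whose levels follow. Each is written 5′ to 3′ on the strand of the gene, with CCAAT and CCACG of the motif, or ATTGG and CGTGG on the opposite strand, in capitals. Hsp90b1 holds the motif at 2 places.
Hspa5, chr2:34772010-34772058, strand +: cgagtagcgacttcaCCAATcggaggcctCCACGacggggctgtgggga
Hsp90b1, chr10:86705518-86705671, strand -: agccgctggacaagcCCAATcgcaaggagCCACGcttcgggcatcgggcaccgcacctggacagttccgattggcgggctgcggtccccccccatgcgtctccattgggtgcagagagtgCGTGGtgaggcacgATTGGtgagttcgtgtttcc
Pdia6, chr12:17266476-17266524, strand +: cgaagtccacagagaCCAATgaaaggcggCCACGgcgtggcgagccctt
Canx, chr11:50325785-50325833, strand -: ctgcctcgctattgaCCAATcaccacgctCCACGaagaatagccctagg
Creld2, chr15:88819505-88819553, strand +: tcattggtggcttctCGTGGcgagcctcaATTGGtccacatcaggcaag
Calr, chr8:84847060-84847108, strand -: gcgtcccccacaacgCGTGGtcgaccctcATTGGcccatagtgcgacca
Dnajc3, chr14:118937812-118937860, strand +: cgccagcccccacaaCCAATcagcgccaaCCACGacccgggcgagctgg

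A shorter form of the element, ATTGG and CCACG with 1 base between them, was found in Herpud1 alone among the members, against 10 genes in all (0.037%). The heat shock element was searched for as GAA, TTC and GAA with 2 bases in each gap, and as its reverse complement. It was found in Hspd1 and Hspe1, a gene pair read in opposite directions from one shared stretch, and in 139 genes in all (0.514%). None of the 12 cytosolic members in the table held an exact match in this window. Elements that depart from these letters were not searched for, so this does not show that these promoters lack one. TGACGTGG (the unfolded protein response element, 0.603% of genes) and TGATGNAAT (of the type bound after amino acid shortage, 0.91%) had no match in any member. The capitals below mark the fixed letters, with overlapping matches on both strands in the heat shock stretch, and the stretch of Hspe1 is that of Hspd1 read from the other strand.
Herpud1, chr8:94386362-94386402, strand +: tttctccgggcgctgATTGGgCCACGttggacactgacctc
Hspe1, chr1:55088044-55088091, strand +: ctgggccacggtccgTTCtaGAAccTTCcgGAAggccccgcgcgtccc

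The arrays had to be checked before they were compared. Their medians lay between 6.84 and 6.89 on the log2 scale, and the correlation of arrays within a group was 0.962 to 0.985, against 0.862 to 0.916 between wild type and transgenic arrays. Sphk1 itself, at its tested probe set, read 7.25 and 7.16 in wild type, 8.63, 8.65 and 8.28 in hTNF, and 10.22, 9.94 and 10.00 on the arrays labelled Sphk1 null. There it was higher than in hTNF by 1.53 ± 0.13 (SE, limma adjusted p = 0.0164). Another Sphk1 probe set, too dim for the filter, had means of 6.25, 6.59 and 6.47 in these groups. Its difference between the null label and hTNF was -0.11 ± 0.14. RNA of a functional null can still be made, so these levels do not check the label, and the group is called the arrays labelled Sphk1 null. Wild-type replicate 2, hTNF replicate 1 and Sphk1 null replicate 1 carried both Xist and Y-linked signal. Without these 3 arrays, 14 members were higher and 8 lower in hTNF than in wild type, where all arrays gave 12 and 7. That fit, like each one below without a wild-type array, leaves wild type with 1 array, which is assumed to vary like the other groups. The means of the chondrocyte, osteoblast and synovial fibroblast lists lay between 9.22 and 13.25 over the arrays. Only genes with a probe set that passed the filter entered these means (7 of 9, 6 of 8 and 10 of 10). The means therefore do not check that cartilage, bone and synovium were present on every array. Wild-type replicate 1 stood apart from replicate 2 in its neutrophil list (mean 7.82 against 11.09) and its proliferation list (6.58 against 8.25).

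In hTNF, 10 of 15 ER chaperones and folding enzymes rose against wild type. The small heat shock group, which includes the co-chaperone Bag3, fell for 6 of 6 genes. The signalling genes of the unfolded protein response and the mitochondrial chaperones gave no call in this comparison. Of the 42 members, 12 rose in hTNF, where 16.5% of the 12362 genes tested rose, and 7 fell, where 19.6% of all genes fell. A call is an adjusted p under 0.05, and "rose" and "fell" are kept for called genes. By compartment, 11 of 24 ER members rose and none fell (median log2 difference 0.30), 1 of 15 measured cytosolic members rose and 7 fell (median -0.13), and 0 of 3 mitochondrial members was called (median -0.03), against a median of -0.02 over all genes. The 2 groups did not overlap for 27 of the 42 members, and for 63.7% of all genes, so that count is near the background. No test was made of the difference between compartments. In bulk tissue, fewer cells of a type and less RNA per cell cannot be told apart.

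**Figure D1:**
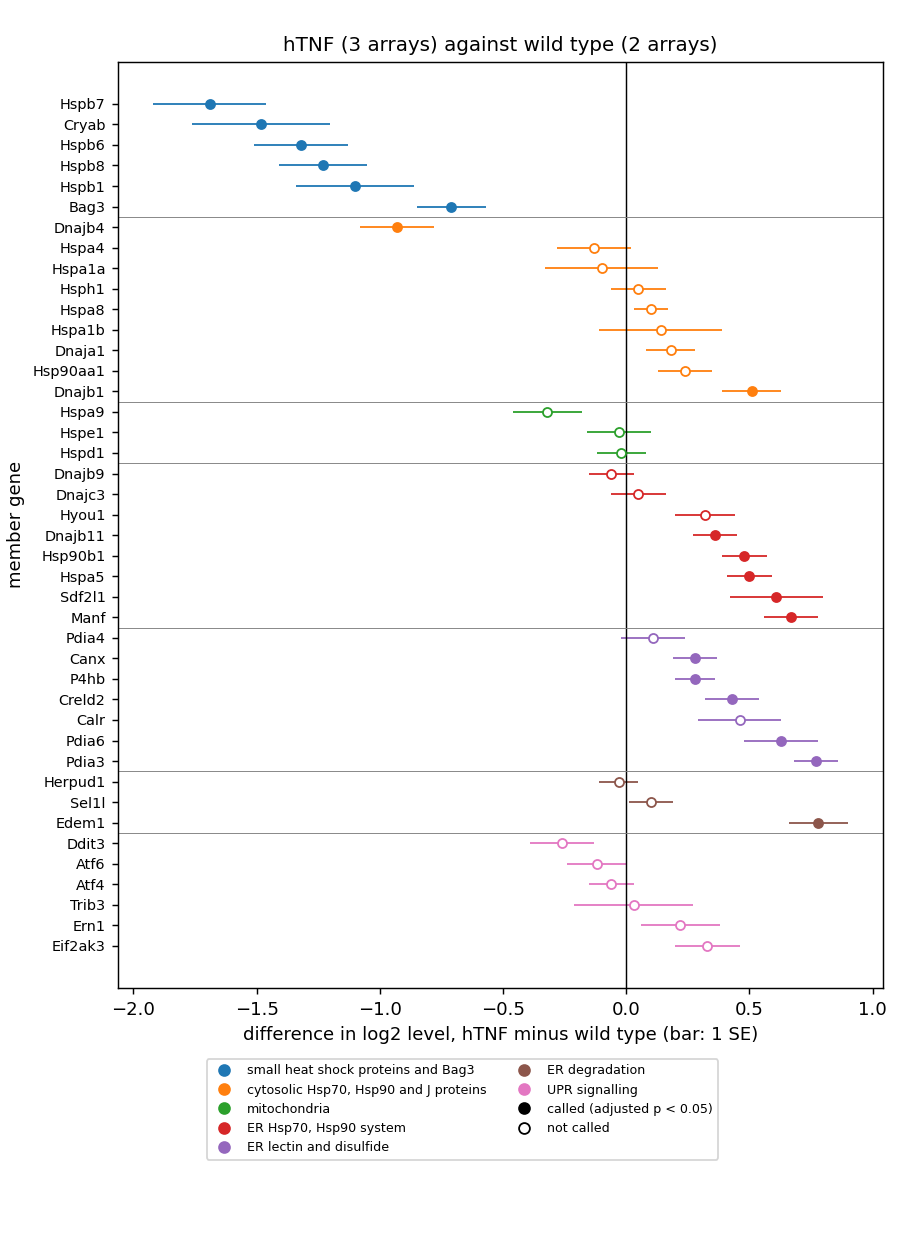
Difference in log2 level between hTNF (3 arrays) and wild type (2 arrays) for the 42 members, 1 point for each gene with a bar of 1 SE, coloured by role; filled points were called at an adjusted p under 0.05. The 6 genes at the top left, the small heat shock proteins and Bag3, lie between -1.69 and -0.71, and the called ER genes lie between 0.28 and 0.78.

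The ER Hsp70 and Hsp90 system rose for 5 of 8 members, and none fell. Hspa5 (BiP), the ER Hsp70 that also holds the stress sensors inactive, read 12.34 and 12.51 in wild type, 12.93, 12.87 and 12.98 in hTNF, and 12.92, 13.08 and 13.11 on the arrays labelled Sphk1 null. All 6 transgenic arrays lay above both wild-type arrays, and the log2 difference of hTNF from wild type was 0.50 ± 0.09 (SE), a 1.42-fold rise with an adjusted p of 0.00206. Hsp90b1 (GRP94), the ER Hsp90, read 10.98 and 10.96, then 11.48, 11.47 and 11.39, then 11.57, 11.57 and 11.71 in the same order of groups. It rose by 0.48 ± 0.09 (adjusted p = 0.0026), again without overlap. Both promoters are among the 7 printed above.

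Manf, a small secreted protein of the ER that is induced by ER stress, had wild-type levels of 9.95 and 10.18, hTNF levels of 10.68, 10.71 and 10.82, and levels of 10.80, 10.85 and 10.93 with the Sphk1 null label. Its rise of 0.67 ± 0.11 was 1.59-fold (adjusted p = 0.00129). Sdf2l1, which works in a complex with BiP and Dnajb11, read 8.46 and 8.52 in wild type, 8.90, 9.24 and 9.15 in hTNF, and 9.23, 8.58 and 9.09 with the null label. The second of these null arrays lay close to wild type, while the other transgenic arrays lay above it. Sdf2l1 rose by 0.61 ± 0.19 in hTNF (adjusted p = 0.0351).

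Dnajb11, a J protein that brings unfolded chains to BiP, completed the called genes of this system, with a rise of 0.36 ± 0.09 (adjusted p = 0.0174). Hyou1, the large Hsp70-like protein that recharges BiP, was 0.32 ± 0.12 higher without a call (adjusted p = 0.07). Dnajb9 and Dnajc3, J proteins that are textbook targets of the unfolded protein response, differed from wild type by -0.06 ± 0.09 and 0.05 ± 0.11 (adjusted p = 0.699 and 0.774). The 8 genes of the system therefore split, with a median of 0.42.

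Among lectin chaperones and disulfide isomerases, 5 of 7 rose and none fell (median 0.43). Pdia3, the isomerase that works with calnexin and calreticulin, read 11.56 and 11.44 in wild type, 12.17, 12.24 and 12.40 in hTNF, and 12.37, 12.28 and 12.42 with the Sphk1 null label. The rise of 0.77 ± 0.09 (1.71-fold, adjusted p = 0.000354) had the smallest adjusted p of all members in this comparison. Pdia6, an isomerase that also acts on the sensor IRE1, read 10.69 and 11.11, then 11.43, 11.44 and 11.72, then 11.43, 11.56 and 11.72. The 2 wild-type arrays were further apart from one another here than for Pdia3, and the rise was 0.63 ± 0.15 (adjusted p = 0.0105).

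Creld2, an ER protein induced by stress, rose by 0.43 ± 0.11 (adjusted p = 0.0181). P4hb, the general disulfide isomerase that is also a subunit of the enzyme hydroxylating collagen prolines, rose by 0.28 ± 0.08 (adjusted p = 0.0213), and so did the membrane lectin Canx (calnexin), by 0.28 ± 0.09 (adjusted p = 0.0308). Calr (calreticulin), the soluble partner of Canx, was 0.46 ± 0.17 higher without a call for its brightest probe set (adjusted p = 0.0716). Pdia4 differed by 0.11 ± 0.13 (adjusted p = 0.565). Of the 10 ER genes in the promoter table that rose, 5 held the ER stress element (Hspa5, Hsp90b1, Pdia6, Canx and Creld2), as did 2 of 11 that were not called (Calr and Dnajc3). These calls are those of the brightest probe set, while 2 of 3 tested probe sets of Calr and 1 of 4 of Dnajc3 rose. Whether the element goes with the rise was not tested.

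Of the 3 genes for removal of misfolded ER proteins, Edem1 alone rose. Edem1, which picks misfolded glycoproteins for degradation, read 9.47 and 9.73 in wild type, 10.20, 10.45 and 10.48 in hTNF, and 10.38, 10.38 and 10.45 with the Sphk1 null label. Its rise of 0.78 ± 0.12 (1.71-fold, adjusted p = 0.00135) was the largest rise of any member. Herpud1, which organises the degradation complex and whose promoter holds the shorter element printed above, differed by -0.03 ± 0.08 (adjusted p = 0.843). Sel1l, the adaptor of that complex, differed by 0.10 ± 0.09 (adjusted p = 0.422).

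**Figure D2:**
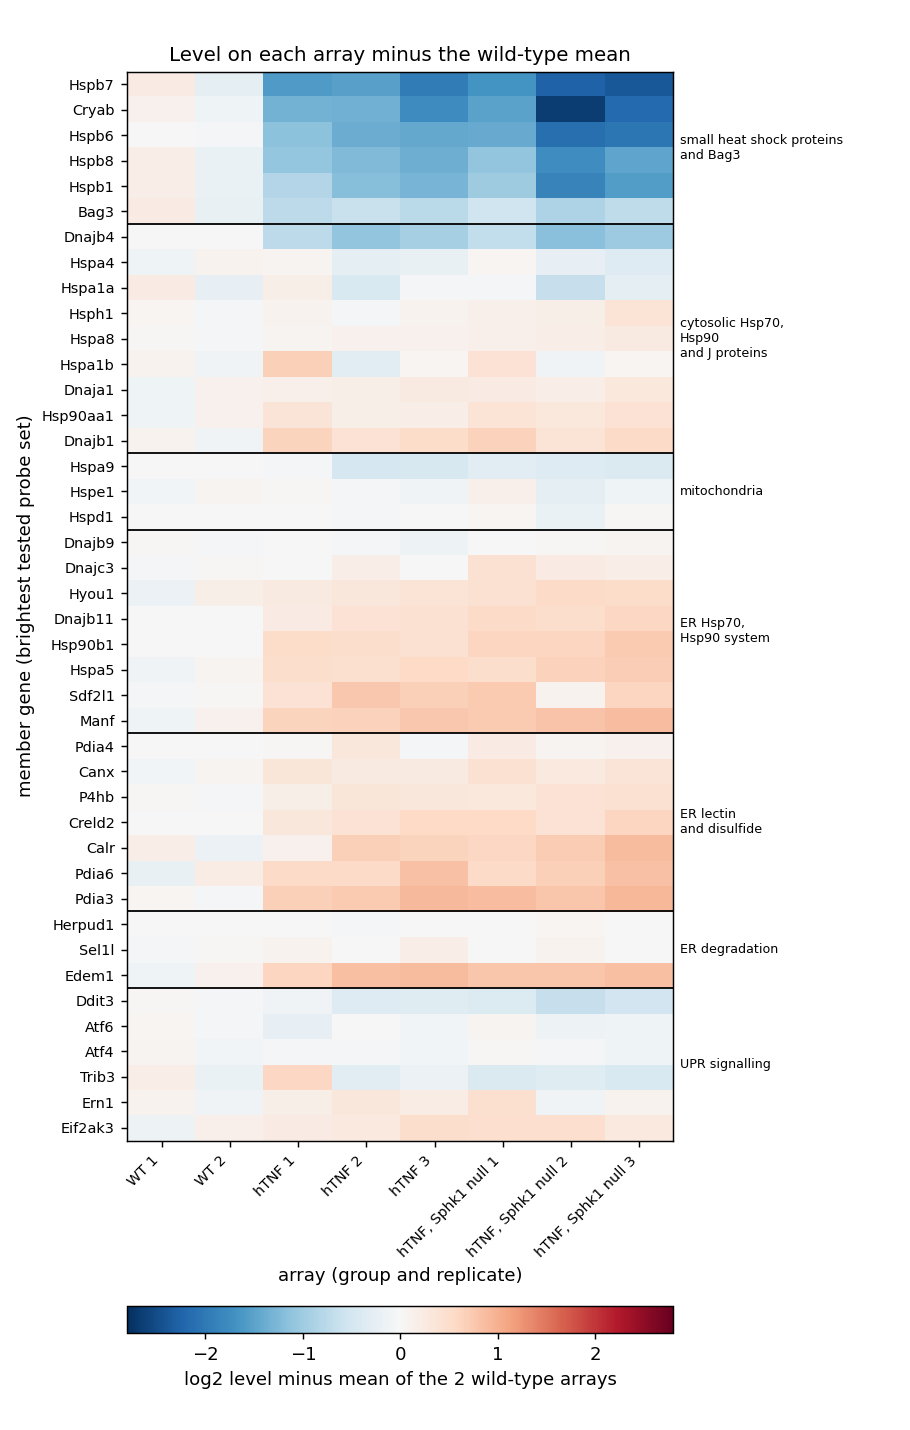
Level of the 42 members on each of the 8 arrays as a colour, given as log2 level minus the mean of the 2 wild-type arrays, with genes in rows by role and arrays in columns. The rows of the small heat shock proteins and Bag3 are blue on all 6 transgenic arrays (row medians on an array -1.12 to -1.99). Most rows of ER chaperones are light red, with medians of 0.32 to 0.60 over the 15 ER chaperones and folding enzymes.

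None of the 6 signalling genes of the unfolded protein response was called in hTNF, and their median difference was -0.01. Ern1 (IRE1), the sensor that splices Xbp1 RNA, read 9.22 and 9.03 in wild type, 9.29, 9.43 and 9.32 in hTNF, and 9.57, 9.02 and 9.22 with the Sphk1 null label. The Sphk1 null arrays spanned both other groups, and hTNF differed from wild type by 0.22 ± 0.16 (adjusted p = 0.333). Eif2ak3 (PERK), the sensor that slows translation, read 9.60 and 9.88, then 9.97, 10.02 and 10.23, then 10.22, 10.22 and 10.02. All transgenic arrays lay above wild type, but the difference of 0.33 ± 0.13 was not called (adjusted p = 0.082).

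Atf6, the sensor that becomes a transcription factor when cut in the Golgi, read 9.37 and 9.26 in wild type, 9.07, 9.30 and 9.23 in hTNF, and 9.39, 9.17 and 9.18 with the null label. The groups overlapped, with a difference of -0.12 ± 0.12 (adjusted p = 0.524). Atf4, the transcription factor made when PERK or its relatives act, read 11.93 and 11.78, then 11.80, 11.82 and 11.78, then 11.90, 11.80 and 11.74. Its difference was -0.06 ± 0.09 (adjusted p = 0.684), with a 95% interval of -0.25 to 0.14. Activation of these factors goes largely through splicing, cleavage and translation, which gene-level array values do not measure.

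Ddit3 (CHOP), a target of Atf4 linked to cell death, read 9.38 and 9.30 in wild type, 9.24, 8.98 and 9.01 in hTNF, and 8.95, 8.69 and 8.81 with the Sphk1 null label. Every transgenic array lay below both wild-type arrays, with a difference of -0.26 ± 0.13 for hTNF that was not called (adjusted p = 0.146). Trib3, another Atf4 target, differed by 0.03 ± 0.24 (adjusted p = 0.952).

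In the cytosol, the small heat shock proteins and their partner Bag3 all fell in hTNF, 6 of 6, with a median difference of -1.27. Hspb7, a small heat shock protein of heart and skeletal muscle, read 13.38 and 12.89 in wild type, 11.55, 11.61 and 11.18 in hTNF, and 11.46, 10.88 and 10.77 with the Sphk1 null label. It fell 3.22-fold, by 1.69 ± 0.23 on the log2 scale (adjusted p = 0.000554), the largest fall of any member. Cryab (alpha B-crystallin), which guards the muscle fibre's Z disc and desmin, read 13.63 and 13.41, then 12.19, 12.17 and 11.77, then 12.03, 10.86 and 11.35. Its fall was 2.78-fold (log2 difference -1.48 ± 0.28, adjusted p = 0.00344), and the arrays labelled null were the most spread of the 3 groups.

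Hspb6, also abundant in muscle, read 13.46 and 13.41 in wild type, 12.29, 12.06 and 12.00 in hTNF, and 12.04, 11.33 and 11.41 with the null label. Both transgenic groups lay below wild type, and hTNF differed from wild type by -1.32 ± 0.19 (2.49-fold lower, adjusted p = 0.000839). Hspb8, the partner of Bag3 in removing damaged muscle proteins by autophagy, read 12.49 and 12.12, then 11.22, 11.07 and 10.94, then 11.19, 10.57 and 10.82. Its difference was -1.23 ± 0.18 (adjusted p = 0.000969).

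Hspb1 (Hsp25), a widely expressed small heat shock protein, read 13.80 and 13.43 in wild type, 12.79, 12.43 and 12.32 in hTNF, and 12.63, 11.75 and 12.06 with the null label. It fell by 1.10 ± 0.24 (adjusted p = 0.00666). Bag3, a co-chaperone of Hsp70 and of small heat shock proteins, read 11.63 and 11.20, then 10.68, 10.79 and 10.66, then 10.85, 10.55 and 10.69. It fell least of the 6 genes, with a difference of -0.71 ± 0.14 (adjusted p = 0.0044), and no transgenic array reached the wild-type range.

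Muscle markers moved with this group. Of 20 skeletal muscle genes, 19 fell in hTNF, and the mean of the list was 13.89 and 13.86 in wild type, 12.81, 12.76 and 12.46 in hTNF, and 12.69, 12.16 and 12.45 with the null label. The mean of the 6 genes of the small heat shock group, Bag3 among them, was 13.06 and 12.74, then 11.79, 11.69 and 11.48, then 11.70, 10.99 and 11.18. On each array the heat shock mean minus the muscle mean was -0.83 and -1.12 in wild type, -1.02, -1.07 and -0.98 in hTNF, and -0.99, -1.17 and -1.26 with the null label. This gap in hTNF lay inside the range of the 2 wild-type arrays, while both means were lower in hTNF by more than 1 log2 unit. With the null label, replicates 2 and 3 (-1.17 and -1.26) lay below that range. By medians, the difference of hTNF from wild type was -1.27 for the heat shock group and -1.07 for the muscle list. The part of muscle content in the fall of the heat shock group was not tested. Adipocyte markers fell as well, all 7 measured, from 11.32 on both wild-type arrays to 9.20 or less in hTNF.

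**Figure D3:**
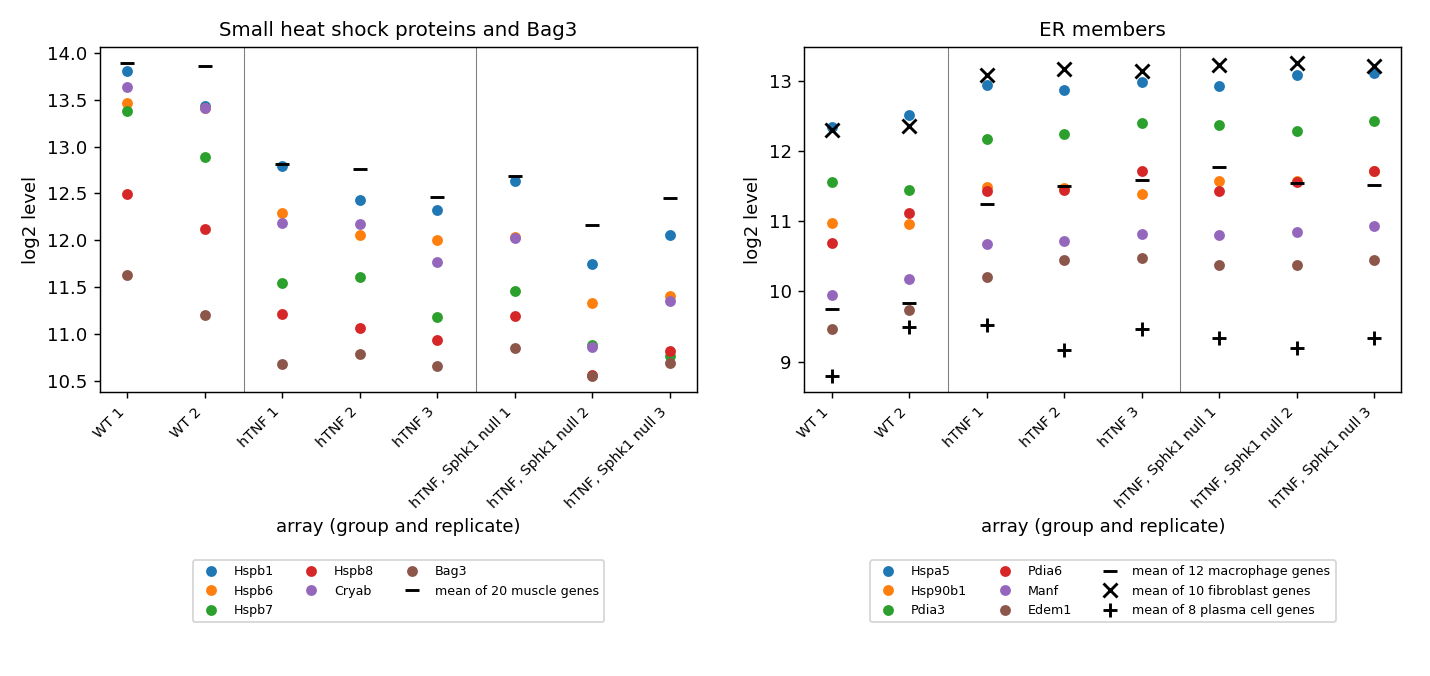
Log2 level on each of the 8 arrays (horizontal axis, by group and replicate). Left, the 6 genes of the small heat shock group, Bag3 among them, with the mean of 20 muscle genes. Right, 6 ER members with the means of the macrophage, synovial fibroblast and plasma cell lists. The muscle mean drops from 13.89 and 13.86 in wild type to between 12.16 and 12.81 in the transgenic arrays together with the heat shock genes, and the fibroblast and macrophage means are higher on all 6 transgenic arrays. Heights of different genes are not to be compared.

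Of the 9 measured members of the cytosolic Hsp70 and Hsp90 system, 1 rose and 1 fell, and the median difference was 0.10. Between hTNF and wild type 5 of the 9 did not overlap, against 63.7% of all genes. Hspa8 (Hsc70), the constitutive Hsp70, read 13.18 and 13.11 in wild type, 13.21, 13.27 and 13.26 in hTNF, and 13.28, 13.33 and 13.40 with the Sphk1 null label. These values lie within a narrow band, with a difference of 0.10 ± 0.07 in hTNF (adjusted p = 0.281). Hsp90aa1, the inducible cytosolic Hsp90, read 10.82 and 11.07, then 11.31, 11.12 and 11.14, then 11.34, 11.24 and 11.36. It was above wild type on all 6 transgenic arrays, by 0.24 ± 0.11 in hTNF without a call (adjusted p = 0.116).

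The stress-inducible Hspa1a and Hspa1b encode nearly the same protein, so their probe sets may share signal and the split between them is uncertain. Hspa1a read 9.23 and 8.75 in wild type, 9.15, 8.57 and 8.95 in hTNF, and 8.95, 8.34 and 8.74 with the null label. Hspa1b read 10.20 and 10.00, then 10.76, 9.81 and 10.16, then 10.50, 10.01 and 10.15. Both overlapped between all groups, with differences of -0.10 ± 0.23 (adjusted p = 0.792) and 0.14 ± 0.25 (adjusted p = 0.72) in hTNF. Their spread within a group was wider than that of Hspa8.

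The 2 called members of this system are J proteins, and they moved in opposite directions. Dnajb1 (Hsp40), the main stress-inducible partner of Hsp70, read 9.31 and 9.12 in wild type, 9.83, 9.61 and 9.73 in hTNF, and 9.85, 9.60 and 9.74 with the null label, a rise of 0.51 ± 0.12 (adjusted p = 0.0113). Dnajb4 read 11.26 and 11.30, then 10.54, 10.17 and 10.35, then 10.58, 10.11 and 10.26, a fall of 0.93 ± 0.15 (adjusted p = 0.00169). Neither gene overlapped between wild type and either transgenic group. The others were not called: Dnaja1 differed by 0.18 ± 0.10, Hspa4 by -0.13 ± 0.15 and Hsph1, a nucleotide exchange factor of Hsp70, by 0.05 ± 0.11 (adjusted p = 0.184, 0.574 and 0.78).

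Mitochondrial chaperones gave no call. Hspd1 (Hsp60), the folding chamber of the mitochondrial matrix, read 11.48 and 11.52 in wild type, 11.48, 11.46 and 11.51 in hTNF, and 11.56, 11.31 and 11.53 with the null label. All groups overlapped, with a difference of -0.02 ± 0.10 in hTNF (adjusted p = 0.922). Hspe1 (Hsp10), the lid of that chamber, which shares the stretch with heat shock elements printed above, differed by -0.03 ± 0.13 (adjusted p = 0.879). Hspa9 (mortalin), the mitochondrial Hsp70 that pulls proteins in, differed by -0.32 ± 0.14 without a call for its brightest probe set (adjusted p = 0.0991). That result was not stable, since Hspa9 was called lower in 4 of 17 alternatives. These were the median probe set (-0.47, adjusted p = 0.0296), the keratinocyte covariate (-0.40, adjusted p = 0.0359) and leaving out hTNF replicate 1 (-0.47, adjusted p = 0.00908). The other left out the 3 arrays with mixed Xist and Y-linked signal (-0.44).

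Of the 19 calls between hTNF and wild type, 11 stood in each of the 17 alternatives tried: Hspa5, Hsp90b1, Manf, Pdia3, Edem1, Dnajb4, Hspb6, Hspb7, Hspb8, Cryab and Bag3. Without wild-type replicate 1, where the 1 wild-type array left adds nothing to the estimate of spread, 6 members rose in place of 12, and Pdia6 (0.42, adjusted p = 0.108) and Hspb1 (-0.92, adjusted p = 0.0694) lost their calls, while Dnajb1 lost its call without wild-type replicate 2 (0.41, adjusted p = 0.0909) and without the 3 arrays with mixed Xist and Y-linked signal (0.36, adjusted p = 0.073). Dnajb11, Creld2, P4hb, Sdf2l1 and Canx were each lost without hTNF replicate 2 or 3, without wild-type replicate 1 and with the replicate block. All but Canx were also lost without wild-type replicate 2, and Canx without hTNF replicate 1. Canx and Sdf2l1 were lost as well without Sphk1 null replicate 3, without the filter and with the keratinocyte covariate. P4hb and Canx were lost without the trend, and Canx with the median probe set. Their calls stood in 12, 12, 11, 9 and 7 of the 17 alternatives, in the order first named. In the fits that kept both wild-type arrays, their adjusted p was up to 0.0741, 0.0725, 0.0773, 0.102 and 0.153.

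Lists of other cell types moved in both directions alongside the ER genes. The macrophage list rose for 10 of 12 genes, with a mean of 9.75 and 9.84 in wild type and between 11.25 and 11.58 in hTNF, and the synovial fibroblast list for 7 of 10, with means of 12.30 and 12.35 against 13.08 to 13.16. The plasma cell list rose for 3 of 8 genes, and its mean overlapped between the groups (8.79 and 9.49 in wild type, 9.16 to 9.52 in hTNF). The osteoclast list rose for 6 of 6 genes (means of 8.25 and 9.47 against 10.36 to 10.86), and the proliferation list for 6 of 7 (6.58 and 8.25 against 8.73 to 8.86). In the neutrophil list 0 of 10 genes were called by limma, and 0 had an unadjusted p under 0.05 (7.82 and 11.09 against 9.36 to 10.40). The chondrocyte list fell for 5 of 7 genes (10.64 and 10.38 against 9.44 to 9.76), the osteoblast list for 2 of 6 (9.71 and 9.92 against 9.23 to 9.64) and the endothelial list for 6 of 6 (9.86 and 10.10 against 9.03 to 9.42). The mean of the 15 ER chaperones and folding enzymes was 10.76 and 10.80 in wild type, 11.10, 11.21 and 11.21 in hTNF, and 11.28, 11.23 and 11.34 with the Sphk1 null label. Keratinocyte markers varied from array to array, with means of 7.93 and 6.75 in wild type and of 11.44, 6.11 and 8.45 in hTNF, without a call in 12 genes. With the keratinocyte mean as a covariate, 11 members rose and 8 fell. The part of the other lists in the members' differences was not tested.

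Between the arrays labelled Sphk1 null and hTNF, none of the 42 members was called in either direction (limma, Benjamini-Hochberg), where 0.0162% of all genes were called, 2 of 12362. An unadjusted p under 0.05 was reached by 4 members, against 6.26% of all genes, and 8 members did not overlap between the groups, against 10% of all genes. The 4 were Hspb6 (-0.52, adjusted p = 0.607), Cryab (-0.63, adjusted p = 0.646), Ddit3 (-0.26, adjusted p = 0.654) and Dnajc3 (0.23, adjusted p = 0.656). All 6 genes of the small heat shock group, Bag3 among them, had a lower mean with the null label, with a median of -0.39. The muscle list had an unadjusted p under 0.05 for 12 of its 20 genes, with a median of -0.36. The ER chaperones and folding enzymes had a higher mean for 14 of 15, with a median of 0.10, against -0.02 over all genes.

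The precision of this comparison differed between members. The 95% interval of the difference ran from -0.06 to 0.28 for Hspa5, from -0.10 to 0.28 for Pdia3, from -0.04 to 0.22 for Hspa8 and from -0.16 to 0.19 for Atf4. It was wide for Cryab (-1.20 to -0.06), Trib3 (-0.90 to 0.07) and Hspa1b (-0.53 to 0.48). Over the 42 members the median width of the interval was 0.50. A difference in Hspa5 as large as that between hTNF and wild type (0.50) lies outside its interval.

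**Figure D4:**
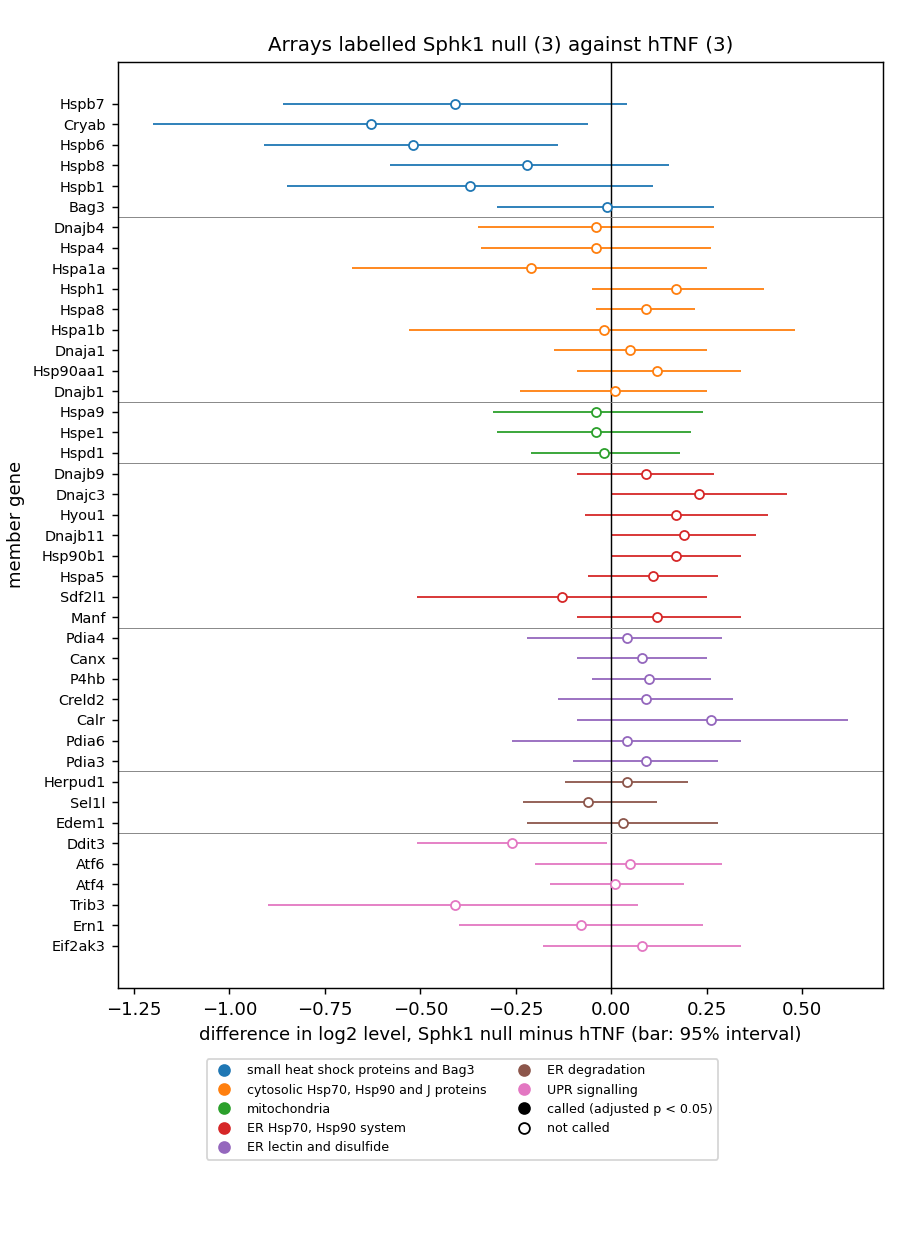
Difference in log2 level between the arrays labelled Sphk1 null (3) and hTNF (3) for the 42 members, 1 point for each gene with its 95% interval, coloured by role. All points are open, since no member was called, and the points lie between -0.63 and 0.26.

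Against wild type, the arrays labelled Sphk1 null had 16 members higher and 8 lower, where 19.1% and 23.8% of all genes were called. This comparison shares its wild-type arrays with the first, so the 2 are set side by side and their overlap is not a result. ER members were higher in 13 cases and lower in 1, and cytosolic members higher in 3 and lower in 7. Hspa5 was higher by 0.61 ± 0.09 here (0.50 in hTNF), Hsp90b1 by 0.65 ± 0.09 (0.48), Pdia3 by 0.86 ± 0.09 (0.77) and Edem1 by 0.80 ± 0.12 (0.78). Cryab was lower by 2.11 on the log2 scale (-2.11 ± 0.28, against -1.48 in hTNF) and Hspb7 differed by -2.10 ± 0.23 (-1.69), with adjusted p of 0.000372 and 0.000121.

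Some members were called here and not between hTNF and wild type: Hyou1 (0.49, adjusted p = 0.00959), Calr (0.73, adjusted p = 0.00923), Eif2ak3 (0.41, adjusted p = 0.0324), Hsp90aa1 (0.37, adjusted p = 0.0232), Hspa8 (0.19, adjusted p = 0.0447) and, in the downward direction, Ddit3 (-0.52, adjusted p = 0.0093). The direct comparison of the 2 transgenic groups called none of them. Sdf2l1, called in hTNF, was not called here (0.48, adjusted p = 0.0752). Of the 24 calls, 15 stood in all alternatives, and without wild-type replicate 1 the count of higher members was 10, with Hyou1 (adjusted p = 0.103), Hsp90aa1 (0.199), Eif2ak3 (0.251), Canx (0.0783), Pdia6 (0.0682), Hspa8 (0.0811) and Ddit3 (0.0702) no longer called. Calr and Dnajb1 lost their calls without wild-type replicate 2 (adjusted p = 0.0846 and 0.0773), as did Hspa8 (adjusted p = 0.2). Hspa8 was also lost without hTNF or Sphk1 null replicate 2 or 3 (adjusted p up to 0.142) and without the 3 arrays with mixed Xist and Y-linked signal. No filter, no trend, only the 2 groups, quantile normalization, the replicate block and the keratinocyte covariate each lost it too (adjusted p up to 0.159). Its call stood in 4 of 17 alternatives. Hsp90aa1 was lost without Sphk1 null replicate 3 and with the replicate block (adjusted p = 0.0745 and 0.0665). Eif2ak3 was lost without Sphk1 null replicate 1 or 2 or hTNF replicate 2, with only the 2 groups, and with the replicate block (adjusted p up to 0.0784).

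Genes of the same pathways outside the 44 members showed the following in hTNF against wild type, where 16.5% of all genes rose and 19.6% fell. Of 24 other ER folding genes 10 rose and 0 fell (median 0.27). Ero1a, the oxidase that recharges disulfide isomerases and is also known as a hypoxia target, read 9.34 and 9.35 in wild type and 11.33, 10.36 and 10.77 in hTNF, a rise of 1.48 ± 0.23 (adjusted p = 0.0013). Serpinh1 (Hsp47), the chaperone of procollagen, rose by 0.67 ± 0.11 (adjusted p = 0.00195). Of 19 other genes of ER translocation and degradation 6 rose and 0 fell (median 0.14), led by Sec61a1 of the import channel (0.63 ± 0.10, adjusted p = 0.0012) and Derl2 of the export machinery (0.57 ± 0.13, adjusted p = 0.00748).

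Other cytosolic chaperones fell more often than they rose, 11 against 1 of 30 (median -0.17). Hspb2 and Hspb3, muscle small heat shock proteins that form a complex with one another, fell by 1.85 ± 0.25 and 1.75 ± 0.21 on the log2 scale (adjusted p = 0.000546 and 0.000303), and Hspa4l rose by 0.42 ± 0.14 (adjusted p = 0.0431). Of 11 other mitochondrial chaperones and proteases 4 fell and 0 rose (median -0.36), with Clpx at -0.73 ± 0.16 (adjusted p = 0.0076) and Trap1 at -0.63 ± 0.10 (adjusted p = 0.00114).

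Stress signalling outside the members was split, with 5 of 21 genes higher and 5 lower (median 0.04), against 16.5% and 19.6% of all genes. These counts are near that background. Xbp1, whose spliced form drives ER chaperones and secretory capacity, read 11.99 and 12.16 in wild type, 12.30, 12.31 and 12.40 in hTNF and 12.26, 12.34 and 12.30 with the null label, a rise of 0.26 ± 0.08 in hTNF (adjusted p = 0.0348). Atf3 was 0.60 ± 0.22 higher without a call (adjusted p = 0.06), and Ppp1r15a (GADD34), which ends the block of translation, fell by 0.40 ± 0.11 (adjusted p = 0.0189). The largest rises were those of Slc7a11, the cystine carrier (1.20 ± 0.15, adjusted p = 0.000378), and Ddit4, an inhibitor of mTORC1 (1.04 ± 0.31, adjusted p = 0.0305), and the largest falls those of Wfs1 (-0.83 ± 0.15, adjusted p = 0.00234) and Psat1, an enzyme of serine synthesis (-0.82 ± 0.28, adjusted p = 0.0487).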

How the data were processed

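Total RNA of ankle joints was labelled with biotin and hybridised to Affymetrix arrays, per the labels' protocols. The authors deposited 1 table of log2 values for 45101 probe sets; Affymetrix Expression Console, RMA and MAS5 are named in the submitters' processing notes, without saying which made the values. Because the array medians are nearly equal, differences in total RNA are not visible.

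Gene names came from the annotation of the platform, brought up to date with RefSeq GRCm38.p6: 34945 had 1 gene, 932 several and 9160 none. Control probe sets and those not above the table's median (6.87) on at least 2 of 8 arrays were left out, leaving 24115 probe sets and 12362 genes, each at its brightest probe set. limma 3.58.1 (R 4.3.3) fitted 1 mean per group to all 8 arrays with an intensity trend (5 residual degrees of freedom), and p-values were adjusted over all tested probe sets (Benjamini-Hochberg, threshold 0.05). The procedure was tested on simulated data. Few arrays per group limit the precision.

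The members and lists were chosen with earlier results of these data known. Levels on every array are given for called members with the 8 largest rises and 8 largest falls in hTNF, and for 13 sensors and main chaperones chosen by name, less those not measured; of other pathway lists, up to 2 rises and 2 falls are named, besides Xbp1, Atf3 and Ppp1r15a. Alternatives were no filter, an offset of 32, quantile normalization, no trend, only the 2 groups compared, the median probe set, the replicate block, the keratinocyte covariate, leaving out each array, and leaving out the 3 arrays with mixed Xist and Y-linked signal.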

Additional observations from a re-analysis of the deposited data

How the results depend on the processing

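Counts of lower members stayed between 6 and 8 (hTNF against wild type) and between 7 and 10 (Sphk1 null label against wild type) in all alternatives, and no called member changed direction. Among members without a call, the sign of the difference changed in at least 1 alternative for 11 (hTNF against wild type), 17 (null label against hTNF) and 8 (null label against wild type). Some of them gained a call between hTNF and wild type. Hspa9 and Calr did so in 4 of 17 alternatives each, and Hyou1 in 2 and Eif2ak3 in 1 with a single wild-type array left. Higher members in hTNF numbered 12, and 6 to 12 when each array was left out in turn (6 without wild-type replicate 1, 7 without hTNF replicate 2 or 3). With all probe sets, 7965 calls became 4695 to 9313 on leaving out an array, 4695 without wild-type replicate 1. Higher members with the null label numbered 16, and 10 to 16 without an array. Between the transgenic groups, 2 probe sets were called, 6 after quantile normalization, 0 without the 3 arrays with mixed Xist and Y-linked signal, and 0 to 3 without 1 array, and no member was called in any alternative. Deviations from the group means correlated at -0.17 to 0.27 for same-numbered arrays of different groups, and at -0.49 to 0.37 for the other pairs. Between hTNF and the null label the same-numbered values were 0.23, 0.05 and 0.25. These ranges overlap, so they do not settle whether the replicate numbers pair the arrays. With the replicate block, 7 members were higher and 7 lower in hTNF, 13 and 8 with the null label against wild type, and 0 between the transgenic groups. Leaving out a wild-type array leaves 1, so the spread then comes from the transgenic groups alone.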

Other observations

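Other probe sets of the members differed in size more than in direction. Of 28 members with over 1 tested probe set, all probe sets had the same sign in 23 for hTNF against wild type, and in 0 members were probe sets called in opposite directions. Edem1 had a second probe set with a rise of 0.98 ± 0.14 (adjusted p = 0.000877), and that of Hspb1 fell by 1.24 ± 0.31 (adjusted p = 0.0141). Both other probe sets of Calr rose (0.58 and 0.56, adjusted p = 0.0447 and 0.0466), where the brightest was not called. One probe set of Hsp90aa1 rose by 0.66 ± 0.13 (adjusted p = 0.0034), reading 9.06 and 8.92 in wild type and 9.69, 9.70 and 9.57 in hTNF, and 1 of Dnajc3 rose by 0.46 ± 0.11 (adjusted p = 0.00961), while those of their brightest probe sets were not called. One probe set of Hspa9 fell by 0.58 ± 0.17 (adjusted p = 0.0254). Some members with a called brightest probe set had others without a call. Of the tested probe sets, 1 of 2 rose for Pdia3, 2 of 3 for Hspa5 and 1 of 3 for Canx. The uncalled ones differed by 0.23 for Pdia3 (adjusted p = 0.264) and 0.32 for Hspa5 (adjusted p = 0.249). Those of Canx differed by 0.31 and 0.43 (adjusted p = 0.158 and 0.0558).

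Ppp1r15a, which is no member, read 9.82 and 9.73 in wild type, 9.37, 9.27 and 9.48 in hTNF, and 9.70, 9.79 and 9.64 with the Sphk1 null label. The 2 transgenic groups did not overlap, with a difference of 0.34 ± 0.10 (unadjusted p = 0.00679, adjusted p = 0.586), which is not called.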
